A study of Mus musculus with 6 samples.

Results

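The 9 MCM genes Mcm2 to Mcm10 were followed in mouse livers that carried a guide RNA against Prdx2, a peroxide-reducing enzyme, or a control guide RNA. They were chosen by gene symbol, and the set was picked from the comparison of these same livers because Mcm10 was higher while Mcm2 and Mcm4 were lower in the sgPrdx2 livers. The values of the group difference are therefore given as a description and are read as no evidence of a response. The 9 genes were 9 of 52459 genes in the count table, and all 9 were among the 17032 genes with enough counts to be tested.

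RNA-Seq was made from total RNA of whole liver of 6 male Alb-Cre/Cas9 F1 mice on the C57BL6J background, 3 with sgCtrl (mice 5.1, 7.1 and 7.2) and 3 with sgPrdx2 (mice 1.1, 1.3 and 3.2). Cas9 in these mice depends on Cre, and Cre is driven by the albumin promoter, so that editing is aimed at hepatocytes. Editing was not measured in these libraries, and hepatocytes that the vector did not reach would keep an unedited gene, as would other cell types without Cre. Each guide was given by intravenous AAV8-U6 vector at 4 to 5 weeks of age. All 6 mice, controls included, then received 100 mg/kg diethylnitrosamine (DEN, a liver carcinogen) 3 weeks later and, after 1 further week, a choline-deficient high-fat diet (CDA-HFD) for 6 months, and livers were taken at 8 months of age. Both groups are thus diseased livers with the same transgenes, and no untreated liver was compared. Each liver is 1 mouse, so the spread between livers includes the spread between animals.

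The Mcm2 to Mcm7 proteins form the ring-shaped helicase that is loaded onto DNA at replication origins in G1 and unwinds the double strand in S phase. Mcm8 and Mcm9 are related helicase subunits that act together in repair by homologous recombination. Mcm10 shares the name but not the helicase fold. It binds DNA and the loaded helicase, and it is needed for origin firing and for the recruitment of DNA polymerase alpha. In adult liver most hepatocytes are out of the cell cycle, and these genes are known to be induced together when hepatocytes re-enter it, by E2F transcription factors among others.

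The promoters are shown first, because the members share sequence features that the choice of genes did not use. RefSeq windows of build GRCm38.p6, from 250 bases before to 50 bases after each start, were found for 8 of the 9 genes, with 9 windows in all since Mcm7 has a pair of starts. No window was found for Mcm4. Both strands were searched for 4 forms of the E2F motif, TTTCCCGC, TTTCGCGC, TTTGCCGC and TTTGGCGC, for the CCAAT box and for TTTGAA, the core of the CHR element of mitotic genes. An E2F form was found in 5 of the 8 genes (Mcm3, Mcm5, Mcm6, Mcm7 and Mcm8). By window this was 5 of 9, against 2.26% of all 32851 windows (744 windows). Mcm3, Mcm6 and Mcm7 each held 2 separate sites in 1 window, which was the case for 0.0913% of all windows (30 windows). The sites are shown with up to 9 flanking bases on each side, the matched letters in capitals:
Mcm3 site 1: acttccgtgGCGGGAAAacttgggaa
Mcm3 site 2: ttgggaagtTTTGGCGCcaag
Mcm5: gccaagaacTTTCGCGCCAAAacgtccagc
Mcm6 site 1: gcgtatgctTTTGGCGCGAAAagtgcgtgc
Mcm6 site 2: ttggacgggTTTGGCGCgaagtagct
Mcm7 site 1: tttcgaaccGCGGGAAAcagggtgtc
Mcm7 site 2: gtgacgacgTTTCGCGCcaatttcgg
Mcm8: gtcatagacGCGCCAAAaaa

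Each is printed on the strand of its gene. The coordinates given for a site are those of the printed stretch, flanking bases included, while its position is that of the first matched letter. The Mcm5 site (chr8:75109347-75109376, plus strand) and the first Mcm6 site (chr1:128359795-128359824, minus strand) hold overlapping forms on both strands and were counted once each. Positions count from the RefSeq start of the transcript, with bases before it negative. The Mcm5 site began at -153, and the Mcm6 sites at -110 and -47 (second site chr1:128359736-128359761, minus strand). The Mcm7 sites began at -165 (chr5:138172032-138172057, minus strand) and at base 17 of the transcript (chr5:138171851-138171876, minus strand). Both Mcm3 sites lay just inside the transcript, at bases 20 (chr1:20820277-20820302, minus strand) and 39 (chr1:20820263-20820283, minus strand), as did the Mcm8 site at base 40 (chr2:132816171-132816190, plus strand). The CCAAT box was present in 9 of 9 windows, against 37.4% of all windows, and in 1 window it shared bases with an E2F form. TTTGAA was present in the Mcm2 window alone among the 9, against 17.9% of all windows. A match is a stretch of letters and not a measured binding site.

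None of the 4 forms was found in the windows of Mcm2, Mcm9 and Mcm10, nor in the other Mcm7 window (chr5:138171217-138171516, minus strand). The windows follow RefSeq starts, which differ from the GENCODE gene models for some members. The GENCODE model of Mcm9 begins at chr10:53630439 on the minus strand, outside its window (chr10:53629908-53630207), and bases beyond the window were not searched. The Mcm10 window ended on TTTGGCG, the first 7 letters of a form, and the base that follows in the GENCODE transcript is G. This stretch differs from the searched form in its last letter only. Other variants of the E2F motif were not searched, so an E2F-like site at this edge of the Mcm10 window is left open. The 250 bases before the start are shown for Mcm10 (chr2:5012792-5013041, minus strand) and for Mcm2 (chr6:88898781-88899030, minus strand), which lay on opposite sides in these livers, with the CCAAT box in capitals on either strand:
Mcm10: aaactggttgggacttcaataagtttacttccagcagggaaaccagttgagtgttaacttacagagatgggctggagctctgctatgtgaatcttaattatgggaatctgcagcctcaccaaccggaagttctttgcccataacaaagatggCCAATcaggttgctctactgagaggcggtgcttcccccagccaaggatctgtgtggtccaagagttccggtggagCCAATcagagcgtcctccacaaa
Mcm2: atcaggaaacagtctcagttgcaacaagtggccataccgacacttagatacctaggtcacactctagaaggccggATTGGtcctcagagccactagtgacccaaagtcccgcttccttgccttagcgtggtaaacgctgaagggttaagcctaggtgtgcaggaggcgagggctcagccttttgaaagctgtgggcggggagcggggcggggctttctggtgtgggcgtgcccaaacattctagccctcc

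That the 4 forms are missing says only that these exact letters are not in these windows. Of the 11763 tested genes with a window, 502 held an E2F form. Their median log2 fold change between sgPrdx2 and sgCtrl livers was -0.04, beside -0.03 over all tested genes with a window, and 4 of them were called higher and 6 lower, beside 213 higher and 202 lower among the 11763.

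The depth was 37462102 to 56865293 counts per liver, so that 3 counts correspond to 0.0555 to 0.0921 CPM. Levels are CPM, read counts relative to the scaled total of a library, after TMM scaling, which sets the libraries to a common level over most genes. The scaling factors of the sgCtrl libraries were 1.12 to 1.17 and those of the sgPrdx2 libraries 0.805 to 0.951, with no overlap, so directions were also examined under other scalings. Prdx2 mRNA, the target of the guide, did not separate the groups (log2 fold change 0.01, with overlap), so its level gives no check of the labels. The markers of hepatocytes summed to 72219 to 78210 CPM with sgCtrl and to 124168 to 168702 CPM with sgPrdx2, where 7 of 8 markers lay higher without overlap (16.7% of all genes) and 4 of 8 were called higher (3.33% of all genes). Albumin made up most of this sum. Macrophage markers summed to 782 to 1201 CPM against 604 to 649 CPM, with 2 of 7 lower without overlap (17.5% of all genes) and 0 of 7 called. Cholangiocyte markers summed to 1630 to 1858 against 1217 to 1393 CPM and stellate cell and fibroblast markers to 1226 to 1750 against 998 to 1051 CPM, with 3 of 6 and 4 of 7 lower without overlap and no member of either list called. Endothelial markers summed to 175 to 198 against 107 to 178 CPM (4 of 6 lower without overlap, 1 of 6 called, lower), lymphocyte markers to 26.5 to 34.1 against 24.4 to 30.4 CPM (1 of 8 called, lower) and neutrophil markers to 6.78 to 12.6 against 7.75 to 11.9 CPM (0 of 4 tested called), with Ly6g and Camp at 0 in a liver. The part of these shifts in the values of the MCM genes was not tested. In whole liver, fewer cells of a type and less RNA per cell cannot be told apart.

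Mcm10 was the member with the most counts and the widest gap between groups. It lies at chr2:4989714-5012791 on the minus strand (GRCm38, GENCODE M21), and no other annotated gene overlaps it. In the sgCtrl livers 5.1, 7.1 and 7.2 it was at 36.6, 40.9 and 34.9 CPM (1601, 1839 and 1837 counts). In the sgPrdx2 livers 1.1, 1.3 and 3.2 it was at 87.3, 82.1 and 93.0 CPM (3832, 4439 and 3027 counts). All 3 sgPrdx2 livers were above all 3 sgCtrl livers, and within each group the livers lay close together. The means were 37.5 ± 3.08 CPM and 87.5 ± 5.44 CPM (SD, n = 3 each), which is 2.33-fold, or 1.22 ± 0.13 (SE) on the log2 scale. Of all tested genes, 1.38% had a larger log2 fold change. GENCODE lists 10 transcripts of the gene, 2 of them coding, and counts per gene do not tell these apart.

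**Figure D1:**
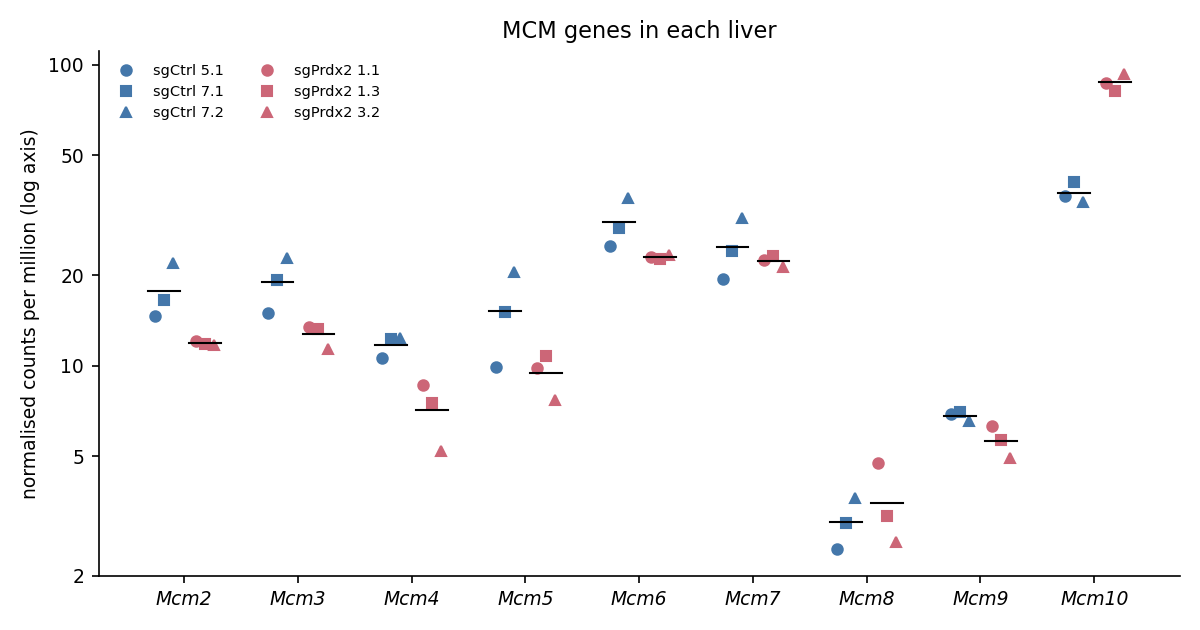
Normalised CPM of the 9 MCM genes (log axis) in each of the 3 sgCtrl (blue) and 3 sgPrdx2 livers (red), with a symbol for each liver and a black line at the group mean. Mcm10 sits at 34.9 to 40.9 CPM with sgCtrl and at 82.1 to 93.0 CPM with sgPrdx2, while Mcm2, Mcm3, Mcm4, Mcm6 and Mcm9 are lower in sgPrdx2 livers without overlap.

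The helicase genes Mcm2 to Mcm6 lay on the other side. Mcm2 was at 14.6, 16.5 and 22.0 CPM in sgCtrl and at 12.1, 11.8 and 11.7 CPM in sgPrdx2 livers (log2 fold change -0.58 ± 0.17, SE). Mcm3 was at 15.0, 19.2 and 22.7 CPM against 13.5, 13.2 and 11.4 CPM (-0.58 ± 0.17). Mcm4 was at 10.6, 12.3 and 12.3 CPM against 8.64, 7.51 and 5.19 CPM (-0.72 ± 0.20). In all 3 genes the groups did not overlap, but the lowest sgCtrl liver, 5.1, came near the highest sgPrdx2 liver for Mcm2 and Mcm3. Mcm6 was at 25.0, 28.7 and 36.2 CPM against 22.9, 22.6 and 23.3 CPM (-0.39 ± 0.15), again without overlap.

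Mcm5, which forms the gate of the ring with Mcm2, and Mcm7 overlapped between groups. Mcm5 was at 9.89, 15.1 and 20.5 CPM in sgCtrl and at 9.82, 10.8 and 7.68 CPM in sgPrdx2 livers (log2 fold change -0.68 ± 0.26). Mcm7 was at 19.4, 24.1 and 30.9 CPM against 22.4, 23.2 and 21.2 CPM (-0.15 ± 0.17). For both genes sgCtrl liver 5.1 lay within or below the sgPrdx2 range.

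The repair pair Mcm8 and Mcm9 had the fewest counts. Mcm8 (chr2:132816141-132844197, plus strand) was at 2.44, 3.003 and 3.61 CPM in sgCtrl and at 4.74, 3.16 and 2.58 CPM in sgPrdx2 livers, from 84 to 208 counts, and the groups overlapped (0.21 ± 0.27). Mcm9 (chr10:53536315-53630439, minus strand) was at 6.92, 6.98 and 6.53 CPM against 6.31, 5.64 and 4.94 CPM, with no overlap (-0.27 ± 0.16).

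In the edgeR quasi-likelihood test over all genes, 567 of 17032 genes (3.33%) had an adjusted p under 0.05, and 1 of the 9 members, Mcm10, was among them. Groups did not overlap, higher in sgPrdx2 livers, for 16.7% of all genes and for 1 of 9 members, Mcm10. Groups did not overlap, lower in sgPrdx2 livers, for 17.5% of all genes and for 5 of 9 members, Mcm2, Mcm3, Mcm4, Mcm6 and Mcm9. Since the members were selected on this comparison, nothing is read from these counts. Over all genes tested the median log2 fold change was -0.02.

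**Figure D2:**
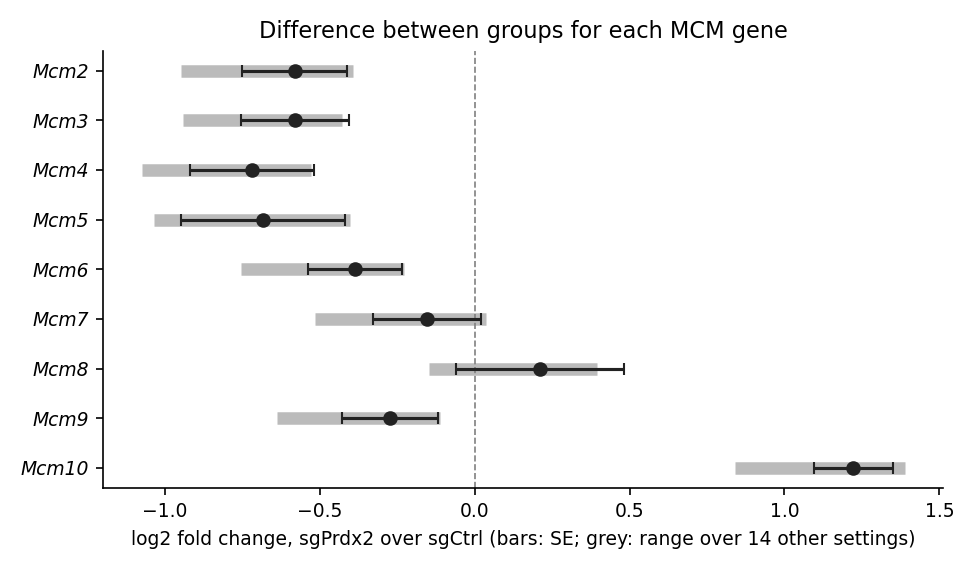
Log2 fold change of each MCM gene, sgPrdx2 over sgCtrl livers, as points with bars of 1 SE, and in grey the range over 14 other settings of scaling, filter, tool and left-out liver. Mcm10 stays between 0.84 and 1.39, Mcm2 to Mcm6 and Mcm9 stay below 0, and the ranges of Mcm7 and Mcm8 cross 0.

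Scaling shifted all members together. With library totals, or with 6 housekeeping genes as the reference, the median of all genes moved to -0.39, and Mcm8 was then below 0 (-0.15 and -0.13) while Mcm10 stayed above 0 (0.84 with the housekeeping genes). Relative to that median, Mcm10 stood at 1.23 and Mcm2 at -0.55 with the housekeeping genes. Single livers mattered for the helicase genes and less for Mcm10. Without sgCtrl liver 7.2, Mcm2 was at -0.39, Mcm5 at -0.40, Mcm6 at -0.23 and Mcm7 at 0.04. Without sgCtrl liver 5.1, Mcm5 was at -0.91 and Mcm7 at -0.30. Without sgPrdx2 liver 1.1, Mcm8 was at -0.07, and without sgCtrl liver 5.1 it was at 0.08. Mcm10 kept 1.18 to 1.29 whichever liver was left out, although no gene of the whole table was called in 4 of those 6 fits, those without sgCtrl 5.1, sgCtrl 7.2, sgPrdx2 1.1 or sgPrdx2 1.3 (3114 to 3993 genes had an unadjusted p under 0.05 in them).

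Among the sgCtrl livers, whose differences from each other the choice of genes did not use, Mcm2 to Mcm7 had a common order. There, liver 7.2 was the highest and liver 5.1 the lowest for 6 of these 6 genes, an order found for 15.0% of all tested genes. This share was taken for the order seen in these genes. Genes read in the same livers are not separate observations, so the order is a description. The highest sgCtrl liver exceeded the lowest by 1.16-fold for Mcm4 and by 2.07-fold for Mcm5. Mcm8 had the same order, whereas Mcm9 and Mcm10 were highest in liver 7.1 and lowest in liver 7.2. No common order was seen within sgPrdx2. The highest liver there was 1.1 for Mcm2, Mcm3 and Mcm4, 1.3 for Mcm5 and Mcm7, and 3.2 for Mcm6. Liver 3.2 was the lowest for 5 of the 6 genes, as it was for 43.7% of all tested genes, and the highest for Mcm10. The sgCtrl liver 5.1 was also the lowest for 16 of 16 genes of a mitosis list, as it was for 33.8% of all tested genes. The summed level of the list was 90.4, 158 and 165 CPM in sgCtrl and 77.2, 105 and 108 CPM in sgPrdx2 livers.

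The ratio of Mcm10 to the mean of Mcm2 to Mcm7, which does not depend on the scaling of a library, was 2.32, 2.12 and 1.45 in sgCtrl and 5.87, 5.53 and 6.93 in sgPrdx2 livers. The means were 1.96 ± 0.456 and 6.11 ± 0.733 (SD, n = 3 each). Both sides of the ratio contributed, the mean of Mcm2 to Mcm7 with 15.7, 19.3 and 24.1 CPM against 14.9, 14.9 and 13.4 CPM. The genes were picked because Mcm10 was higher while Mcm2 and Mcm4 were lower. A gap in this ratio therefore follows from the choice and is a description only. The sgCtrl liver with the highest helicase level, 7.2, had the lowest ratio. That level is the denominator of the ratio, so this is no separate observation.

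**Figure D3:**
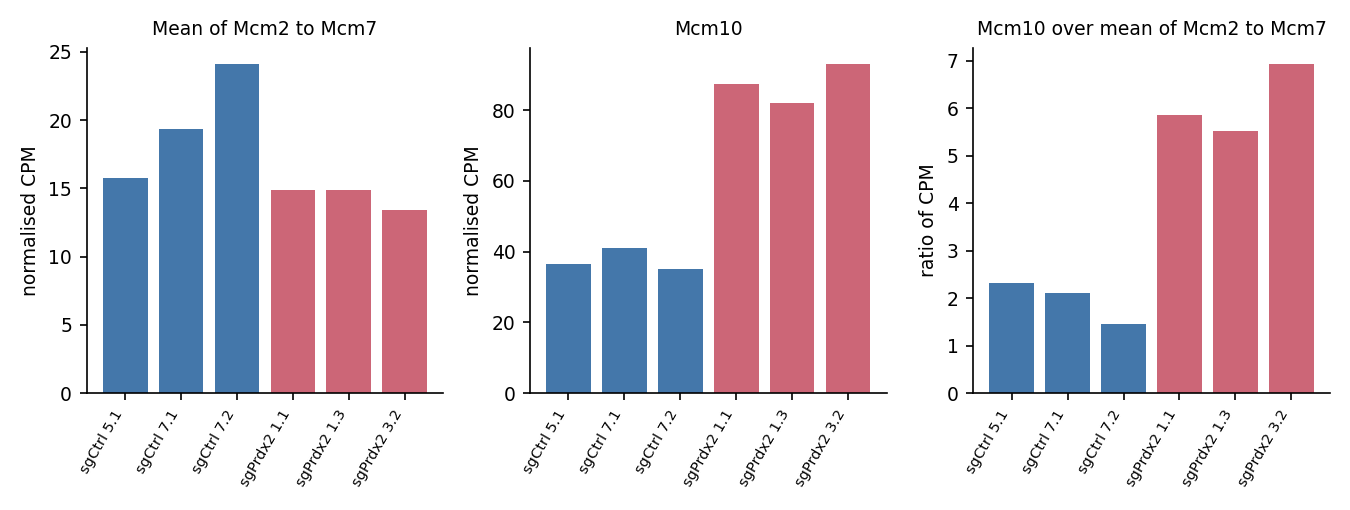
Bars of the mean of Mcm2 to Mcm7 (CPM, left), of Mcm10 (CPM, middle) and of their ratio (right) in each sgCtrl (blue) and sgPrdx2 (red) liver, all axes from 0. The ratio is 1.45 to 2.32 with sgCtrl and 5.53 to 6.93 with sgPrdx2, and sgCtrl liver 5.1 has a helicase mean of 15.7 CPM, next to 14.9 CPM in sgPrdx2 liver 1.1.

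To compare levels between genes, CPM were divided by the length of each gene's merged exons in kilobases. Over the 6 livers the order of mean levels was Mcm10 (8.12 CPM per kb), Mcm6 (5.67), Mcm7 (5.31), Mcm3 (4.22), Mcm5 (3.08), Mcm4 (2.63), Mcm2 (2.13), Mcm8 (0.876) and Mcm9 (0.683). Mcm7 was above Mcm3, Mcm3 above Mcm5 and Mcm2 above Mcm8 in 6 of 6 livers. An exact two-sided sign-flip permutation test gave p = 0.03125 for each of these 3 pairs, the smallest that 6 livers allow, and an adjusted p of 0.0833 over the 8 neighbouring pairs. No neighbouring pair was separated after adjustment. With 6 livers, an adjusted p under 0.05 was possible only if most of the 8 pairs reached that smallest p. The test could thus hardly separate any pair, and nothing is read from the lack of separation. Mcm10 was above Mcm6 in 3 of 6 livers, since in sgCtrl livers Mcm10 (4.87 ± 0.400 CPM per kb, SD, n = 3) came after Mcm6 (6.42 ± 1.22), Mcm7 (5.60 ± 1.305) and Mcm3 (5.06 ± 1.03), within the spread of the last pair. In sgPrdx2 livers it was at 11.4 ± 0.708 CPM per kb, above Mcm7 at 5.03 ± 0.223. The length used matters for Mcm10, whose merged exons span 7692 bases, retained introns included, while its longest coding sequence has 2655 bases. Per kilobase of coding sequence the mean of Mcm10 led in both groups (14.1 ± 1.16 in sgCtrl, 32.9 ± 2.05 in sgPrdx2). In sgCtrl livers this lead lay within the spread of Mcm6 (12.2 ± 2.32) and Mcm7 (11.5 ± 2.68), and Mcm10 was above Mcm7 in 5 of 6 livers. By this length Mcm9 came before Mcm8, and 4 neighbouring pairs were ordered alike in all 6 livers.

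**Figure D4:**
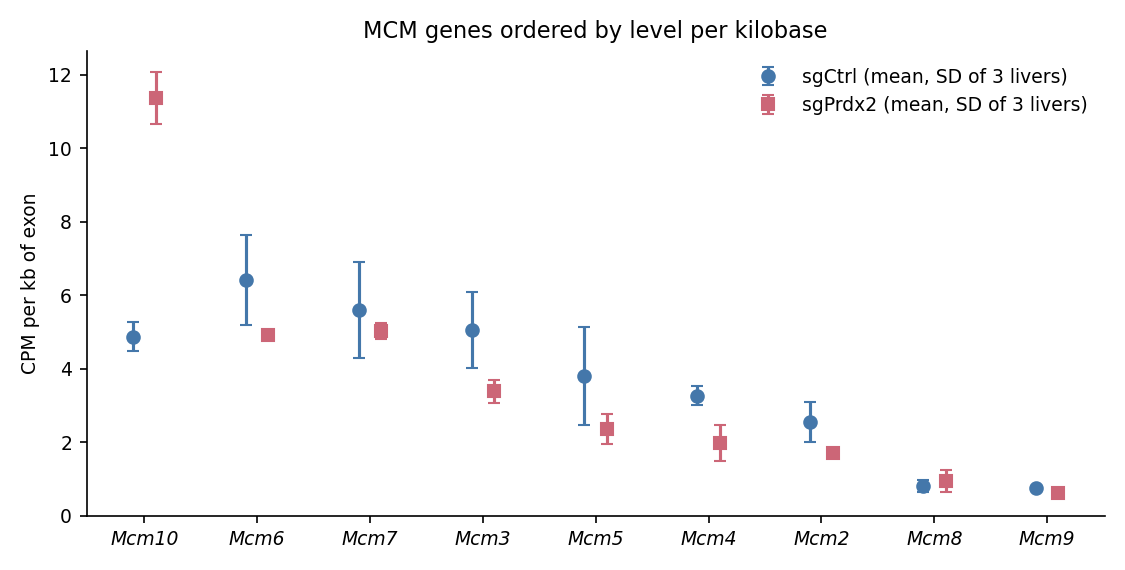
Mean level per kilobase of merged exon of the 9 MCM genes in sgCtrl (blue circles) and sgPrdx2 (red squares) livers, with bars of 1 SD over 3 livers, in the order of the mean over all livers. Mcm10 is at 4.87 in sgCtrl and 11.4 in sgPrdx2 livers, and Mcm8 and Mcm9 reach at most 1.27 in any liver.

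The make-up of the helicase transcripts was examined as each gene's share of the Mcm2 to Mcm7 sum per kilobase. The proteins join the ring in equal numbers, but the transcripts were unequal, with 8.09% to 13.9% for Mcm4, 8.45% to 9.88% for Mcm2, 20.6% to 26.8% for Mcm7 and 23.4% to 28.0% for Mcm6 over the 6 livers. The order depends on the length used. Per kilobase of coding sequence, Mcm4 was the lowest of the helicase genes (mean 3.64 CPM per kb), Mcm2 was at 5.45 and Mcm7 was the highest at 10.9, since the merged exons of Mcm2 span 6956 bases and its coding sequence 2712. By merged exons, Mcm7 made up 20.9% of the sum on average in sgCtrl and 26.0% in sgPrdx2 livers, Mcm6 24.2% and 25.5%, and Mcm4 12.5% and 10.1%.

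Several members share their locus with other genes, and the sources used here do not state whether reads were counted by strand. Mcm4 (chr16:15623897-15637400, minus strand) and Prkdc, which encodes the catalytic subunit of the DNA-dependent protein kinase, start 466 bases apart on opposite strands. Their values differed, with Prkdc at a log2 fold change of 0.07 and overlapping groups. Mcm8 and Trmt6, a tRNA methyltransferase subunit, start 86 bases apart, and Trmt6 was at -0.17 with overlapping groups. Mcm7 (chr5:138164583-138172422, minus strand) shares 7.25% of its exon bases with Ap4m1 (-0.02) and 1.45% with Cops6, both on the opposite strand. Ap4m1 overlapped between groups, while Cops6 was higher without overlap, at 81.7, 89.2 and 94.4 CPM in sgCtrl and at 113, 105 and 163 CPM in sgPrdx2 livers (0.52), and its part in the Mcm7 counts was not tested. Mcm7 also carries the microRNA genes Mir106b, Mir93 and Mir25, which had 0 counts in all livers. Mir93 and Mir25 lie within exon bases of Mcm7, and the 0 counts are not read as absence of the microRNAs. Mcm9 shares 19.2% of its exon bases with the histone chaperone gene Asf1a (0.06, overlapping groups), so the share of its counts that came from Mcm9 itself is uncertain. Mcm2 (chr6:88883474-88898780, minus strand), Mcm3 (chr1:20802968-20820312, minus strand), Mcm5 (chr8:75109569-75128439, plus strand) and Mcm6 (chr1:128331590-128359664, minus strand) overlap no annotated gene.

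The other genes of replication showed how the members' neighbours in the pathway behaved. Of 105 genes in 8 lists, 104 were tested, 1 was called higher and 0 lower in the edgeR test (15 had an unadjusted p under 0.05). DESeq2 called 1 higher and 5 lower, where it called 2048 of 28594 genes in the whole table. By fold change, 31 were above 0 and 73 below, with a median log2 fold change of -0.19 beside -0.02 for all genes tested, and 5 were higher and 22 lower without overlap between groups, where 16.7% and 17.5% of all genes were. The lists were chosen with results of these livers known, and they describe the pathway without a test of their own.

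Of 10 genes of nucleotide supply and chromatin assembly, 5 were above 0 and 5 below, with a median of -0.13. Asf1b, a histone chaperone, was at 2.70, 3.65 and 3.94 CPM in sgCtrl and at 2.23, 2.11 and 1.78 CPM in sgPrdx2 livers (-0.75, adjusted p = 0.0934 in edgeR), lower without overlap and not called. The single call in the 8 lists was lost with library totals, with housekeeping scaling and in each fit that left out a liver, except the fit without sgPrdx2 3.2.

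Among the direct partners, Mcmbp, which binds free MCM subunits, was at -0.11 and Mcm3ap, which acts on Mcm3, at 0.03, neither of them called, and Mcmdc2 had too few counts to be tested. Of 11 genes of origin licensing, the loading of the helicase, 7 were below 0 and the median was -0.07. Cdt1, the loading factor, was at -0.30 (adjusted p = 0.253) and Cdc6, its partner in loading, at -0.39 (0.353). Of 13 genes of helicase activation, 10 were below 0 with a median of -0.29. Cdc7, the kinase that phosphorylates the MCM ring, was at 1.53, 1.40 and 1.58 CPM in sgCtrl and at 1.05, 0.740 and 0.522 CPM in sgPrdx2 livers (-0.95, adjusted p = 0.104), and Topbp1, which helps to activate the helicase, was at -0.39 (0.198). None of these lists had a called gene in the edgeR test with TMM. With library totals, 5 of the 13 genes of helicase activation were called lower, where 3247 of 17032 genes were called in either direction. With housekeeping scaling 3 of the 13 were called lower, where 1637 of 17032 genes were called.

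At the replication fork, 16 of 27 genes were below 0, with a median of -0.07. Pcna, the sliding clamp, was at 37.2, 37.4 and 43.0 CPM against 28.1, 30.3 and 23.2 CPM (-0.53, adjusted p = 0.0752), whereas Rfc2, a subunit of its loader, was at 0.41 (0.116). Of 16 genes of E2F and RB control, 11 were below 0 (median -0.23), and E2f7 and E2f8, repressors among the E2F factors, had the smallest p, at -1.02 (0.179) and -0.62 (0.255). Of 9 genes of homologous recombination, the pathway of Mcm8 and Mcm9, 7 were below 0 (median -0.10), with Mre11a, a nuclease that processes DNA ends, at -0.24 (0.309). The mitosis list had the lowest median, -0.47. It had 16 of 16 genes below 0, of which Bub1b, a spindle checkpoint kinase, was at -0.81 (0.0668) and Top2a, a topoisomerase of dividing cells, at -0.75 (0.104). None was called in the edgeR test with TMM and the default filter. With library totals 6 of the 16 were called lower, where 3247 of 17032 genes were called in either direction. Housekeeping scaling gave 6 lower, where 1637 of 17032 genes were called. DESeq2 called 3 lower, where 2048 of 28594 genes were called, and edgeR without a filter 1, where 1128 of 28631 were.

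**Figure D5:**
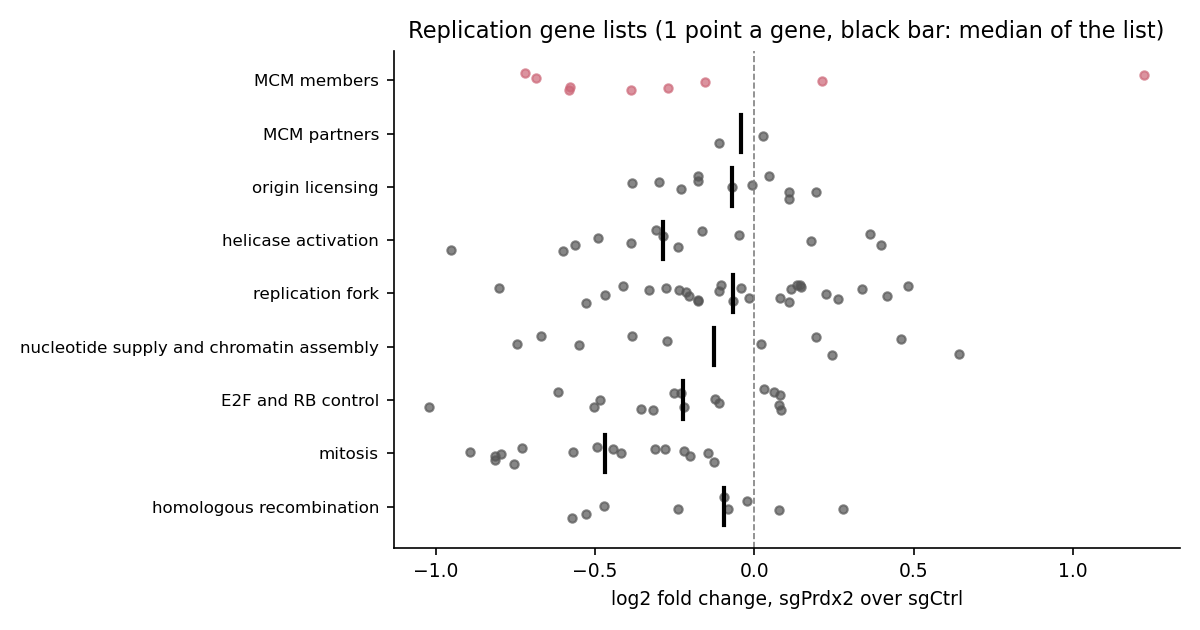
Log2 fold change, sgPrdx2 over sgCtrl livers, of the 9 MCM genes (red) and of the tested genes of 8 replication lists (grey), with 1 point a gene and the median of each list as a black bar. Mcm10 at 1.22 lies to the right of every other point, and the mitosis list has 16 of 16 points below 0.

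The genes whose profile over the 6 livers was most like that of a member were found by the root mean square difference of log2 levels, each centred on its own mean, among 15400 genes. The 5 nearest to Mcm10 were Inca1 (0.059), Klkb1 (0.062), 1810059H22Rik (0.088), 5830473C10Rik (0.096) and Selenoo (0.1004). Klkb1 encodes plasma prekallikrein, which hepatocytes secrete, and was at 75.8, 97.0 and 76.4 CPM in sgCtrl and at 184, 175 and 198 CPM in sgPrdx2 livers. Inca1, an inhibitor of cyclin A1-dependent kinase, was at 8.34, 9.34 and 7.53 CPM against 18.2, 17.3 and 19.9 CPM. The 5 nearest to the mean of Mcm2 to Mcm7 were Tmem45a, Slc39a7, Pus7l, Ermp1 and Kctd3, at 0.065 to 0.085. No gene of the replication lists was among the nearest 5 of either profile. At most 104 of the 15400 genes compared were list genes, so nothing is read from their absence. These likenesses rest on 6 livers in 2 groups and are a description.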

How the data were processed

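The authors deposited 1 table of raw read counts of 52459 genes in 6 livers, as whole numbers without normalization, and 1 table of their own DESeq2 comparison (fold changes and p-values), which was not used. The submitters' processing notes name HISAT2, HTSeq, DESeq2 and GRCm38. Versions, annotation and strandedness are not given in the sources used here. Groups were taken from the sample titles.

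The test was run with edgeR 4.0.16 under R 4.3.3 (filterByExpr with a minimum count of 10, TMM, quasi-likelihood test, Benjamini-Hochberg adjusted p under 0.05) over all 17032 genes that passed, with 3 livers per group and no covariate. The SE of a log2 fold change is its size over the root of the F statistic. On simulated data, edgeR recovered 182 of 200 genes changed by 4-fold with 9 other calls among 17032 genes, and DESeq2 179 with 51. That change is larger than the change of any member (Mcm10, 2.33-fold), so this recovery does not carry over to the members. Alternatives were RLE, upper-quartile, library-total and housekeeping scaling (Atp5b, Bag6, Cox8a, Hint1, Hnrnpa2b1, Ndufa2), no filter, at least 10 counts in every liver, DESeq2 1.42.0, a length and GC correction (mgcv 1.9.3) and leaving out each liver. Level order was tested in Python 3.11.15 with scipy 1.17.1 on log2(CPM per kb + 0.01), and likeness used log2(CPM + 0.25) of genes whose mean reached 0.5 CPM. Coordinates are from GENCODE M21 and promoter windows from RefSeq.

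The members and all lists were chosen with earlier results of these data known. Named were the 9 members, in each replication list the genes called or else the 2 with the smallest p, genes overlapping a member or starting within 1000 bases of its start, the 5 nearest genes by likeness and Prdx2. Asf1b is named beyond this rule, and so is the absence of counts in Ly6g and Camp, both after their values were seen. Results on some genes that this rule names are not reported here. Protein sequences were not analysed here.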

Additional observations from a re-analysis of the deposited data

How the results depend on the processing

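Of all genes tested, 567 were called in the edgeR test with TMM. The count was 3247 with library totals and 1637 with housekeeping scaling, of the same 17032 genes. It was 1128 of 28631 genes without a filter, 2048 of 28594 in DESeq2 and 998 of 16572 with the length and GC correction. When a liver was left out it was 0 to 619. In the replication lists, 1 gene was called, against 29 with library totals, 13 with housekeeping scaling, 6 in DESeq2, 2 without a filter, 2 with the length and GC correction, and 0 to 1 when a liver was left out. Of the 9 members, 1 was called, and 0 to 1 when a liver was left out. With library totals 7 were called (Mcm2 to Mcm6, Mcm9 and Mcm10). With housekeeping scaling 5 were called (Mcm2, Mcm3, Mcm4, Mcm6 and Mcm10), and in DESeq2 4 (Mcm2, Mcm3, Mcm4 and Mcm10). Mcm10 was the only called member above 0 in each of these settings. More of all genes were called in these settings too, and nothing is read from the counts of members. The number of neighbouring pairs in the level order that were ordered alike in every liver was 3, and 3 to 5 when a liver was left out, with 5 without sgCtrl liver 5.1. The sign of the log2 fold change was kept in 14 of 14 settings for Mcm2 to Mcm6, Mcm9 and Mcm10, in 13 for Mcm7 and in 11 for Mcm8. With profiles scaled to unit SD, 1 of the 5 genes nearest to Mcm10 and 0 of the 5 nearest to the mean of Mcm2 to Mcm7 were shared with the lists given. The causes of these shifts were not tested. No paired analysis was possible because the groups share no replicate numbers. With 3 livers per group an exact permutation test of 1 value cannot go below p = 0.1, and Mcm8, with 84 to 208 counts per liver, was the least precise member.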
